A study of Mus musculus with 11 samples.

Results

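Gpx3 and its relatives are the glutathione peroxidase genes of the mouse, and 6 of them, Gpx1, Gpx2, Gpx3, Gpx4, Gpx7 and Gpx8, are described here out of 22196 genes counted in inguinal mammary glands. They were taken by family name, and the family was taken up because Gpx3 was already known to differ between the genotypes in these libraries. The difference in Gpx3 is therefore a description of what chose it. Of the 6 genes, 5 passed the filter on low counts and Gpx2 did not.

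Glutathione peroxidases reduce hydrogen peroxide or lipid hydroperoxides to water or alcohols, usually with glutathione as the electron donor. Gpx1, Gpx2, Gpx3 and Gpx4 carry selenocysteine at the catalytic position, which is read from a UGA codon that would otherwise end translation. Gpx7 and Gpx8 reside in the endoplasmic reticulum and carry cysteine there instead. Gpx3 is the secreted form, made in large amount by the kidney and also by adipose tissue. A mammary gland that makes milk holds secretory epithelium within a fat pad, so that both secretory and fat cells contribute RNA to a whole-gland library.

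The study deleted Tsc1, which encodes a restraint on the growth-regulating kinase complex mTORC1, in fat cells. The Knockout group (6 libraries) had the genotype Tsc1-fl/fl; Adipoq-Cre-Tg/+, in which the recombinase Cre is driven by the adiponectin gene Adipoq, a promoter active in adipocytes. The Wild-Type group (5 libraries) had the genotype Tsc1-fl/fl; Adipoq-Cre-+/+ and thus carried the same floxed alleles without Cre. All mice had normal chow and milk freely available and their glands were taken at day 16 after delivery, and all carry the age label PND16.5. The labels name no sex, litter or batch, and do not say whether the glands are those of nursing mothers. The libraries are named as separate samples, but nothing states from how many animals each came, so that p-values measure the spread between these samples.

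The codons at the catalytic position are shown because they separate the family into its selenium-containing and its cysteine-containing members. Each line is the coding strand from 5′ to 3′, from GENCODE M21 transcripts of the genome GRCm38, with 21 bases on either side of the catalytic codon in capitals.
Gpx1: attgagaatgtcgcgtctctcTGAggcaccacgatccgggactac
Gpx2: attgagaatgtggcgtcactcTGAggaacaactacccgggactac
Gpx3: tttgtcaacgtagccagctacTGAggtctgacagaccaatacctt
Gpx4: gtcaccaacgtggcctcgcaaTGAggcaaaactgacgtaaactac
Gpx7: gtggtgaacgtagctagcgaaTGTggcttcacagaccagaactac
Gpx8: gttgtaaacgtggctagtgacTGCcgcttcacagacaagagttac

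The annotation marks the TGA codons of Gpx1, Gpx2, Gpx3 and Gpx4 as selenocysteine. In Gpx3 it is codon 73 and lies at chr11:54907256-54907258 on the plus strand. For Gpx7 and Gpx8, which have no such mark, the line is the in-frame stretch with the most bases identical to the Gpx3 line, and its central codon is TGT in Gpx7 and TGC in Gpx8, both cysteine codons. Of the 45 bases, Gpx7 shared 30 with Gpx3, Gpx8 shared 26, Gpx4 shared 24, and Gpx1 and Gpx2 shared 21 each. The Gpx7 and Gpx8 stretches were picked for this identity and the others were not, so the numbers do not rank the members by likeness to Gpx3.

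The libraries held 25817975 to 37894237 estimated reads each, and the milk protein list alone held between 50.7% and 63.0% of the reads, so that the tissue label is borne out by its defining transcripts. The adipocyte list was detected with all 20 genes. B cell markers reached 87.0 CPM summed in Wild-Type and 16.1 CPM in Knockout libraries, where Knockout 1 stood apart, and the summed level of 6 skeletal muscle genes ran from 1.6 to 2020 CPM over the libraries, where CPM is the read count relative to library size after TMM scaling. Tsc1 summed over the gene spanned 8.31 to 11.9 CPM (Knockout) and 9.55 to 12.2 CPM (Wild-Type), a value that does not check the deletion, since most RNA came from other cells.

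Levels of different genes were compared per transcript length as TPM, a transcript's abundance relative to its length and to all transcripts of the library. Gpx1 and Gpx4 were the most abundant forms, with 223 TPM ± 33.3 and 207 TPM ± 37.0 (SD, n = 11). Gpx1 was above Gpx4 in 5 of 11 libraries and their ranges overlapped, so that these neighbours did not differ beyond their spread. Gpx1 is the cytosolic and mitochondrial enzyme of most cells, and Gpx4 is the form that reduces lipid hydroperoxides within membranes. Gpx8 followed at 3.79 TPM ± 1.29, Gpx7 at 0.977 TPM ± 0.378 and Gpx2 at 0.238 TPM ± 0.0981 (SD, n = 11). Each of these 3 stood below the preceding gene in 11 of 11 libraries.

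The place of Gpx3 in this order differed between the genotypes. In Wild-Type libraries its mean was 59.4 TPM ± 29.6 (SD, n = 5), which was 3.12-fold below Gpx4, and Gpx4 was above Gpx3 in 5 of 5 libraries without overlap. In Knockout libraries its mean was 208 TPM ± 44.6 (SD, n = 6), beside 225 TPM ± 33.1 for Gpx4 and 227 TPM ± 28.8 for Gpx1, and the ranges of the 3 genes overlapped. Gpx3 was 12.3% ± 4.12 (SD, n = 5) of the summed TPM of the 6 genes in Wild-Type and 31.1% ± 4.30 (SD, n = 6) in Knockout libraries. These shares restate the difference that chose the gene.

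**Figure D1:**
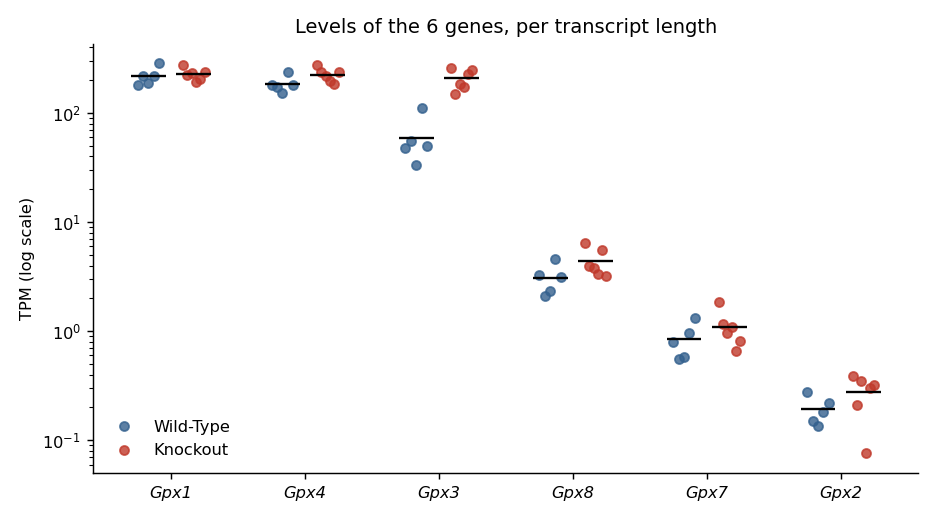
TPM of the 6 glutathione peroxidase genes on a log axis, 1 point per library and a line at each group's mean, with Wild-Type in blue (n = 5) and Knockout in red (n = 6). Gpx1 and Gpx4 sit together near 200 TPM in both groups, Gpx3 joins them in Knockout at 208 TPM, and Gpx8, Gpx7 and Gpx2 lie far below.

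Among the 6 genes, Gpx3 was the 1 that passed an adjusted p of 0.05 in edgeR, where 0.055% of the 12716 genes tested passed (0.0472% higher and 0.00786% lower in Knockout); this count repeats the choice of the gene and nothing is read from it. Gpx3 (ENSMUSG00000018339, chromosome 11, 54902453 to 54910377, plus strand, GRCm38) was at 60.2, 66.7, 43.6, 106 and 57.6 CPM in Wild-Type 1 to Wild-Type 5. In Knockout libraries the lowest was 139.5 CPM in Knockout 2, the median 206 CPM and the highest 253 CPM in Knockout 6. The groups did not overlap, as was so with Knockout higher for 0.786% of all genes tested, and the nearest libraries were Wild-Type 4 and Knockout 2. The fitted log2 fold change was 1.63 ± 0.22 (SE), a 3.10-fold higher level with a 95% interval from 2.23-fold to 4.30-fold (edgeR adjusted p = 0.0150), on 1387 to 9406 reads per library.

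Single libraries moved the Gpx3 difference only moderately. Without Wild-Type 4 the log2 fold change was 1.86, and without Wild-Type 3 it was 1.51. The call was less stable than the size: without Knockout 1, Knockout 3, Knockout 6, Wild-Type 2 or Wild-Type 3 the edgeR adjusted p lay between 0.0502 and 0.0779. With same-numbered libraries as blocks in the model, the log2 fold change was 1.61 (edgeR adjusted p = 0.256). Gpx3 had no annotated neighbour overlapping it, and 1.29% of the 31-base words of its coding sequences also occurred in Gpx5 or Gpx6.

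Gpx1 (chromosome 9, 108338903 to 108340343) was at 177, 203, 191, 169 and 239 CPM in Wild-Type 1 to Wild-Type 5. The Knockout libraries ran from 150.5 to 192 CPM with a median of 169 CPM, so that the groups overlapped. The log2 fold change was -0.19 ± 0.10 (SE), with a 95% interval from -0.40 to 0.02 (edgeR adjusted p = 0.447). The highest library was Wild-Type 5, and without it the log2 fold change was -0.11. A fall of Gpx1 to -0.40 on the log2 scale thus lay within the interval.

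Gpx4 (chromosome 10, 80047166 to 80056439) lay close together in all libraries. It was at 172, 154, 152, 174 and 148 CPM in Wild-Type 1 to Wild-Type 5, and from 149 to 181 CPM with a median of 171 CPM in Knockout libraries. Both groups covered nearly the same range. The log2 fold change was 0.08 ± 0.07 (SE; 0.05 without Wild-Type 5 or with an adipocyte covariate, and 0.11 without Knockout 5), with a 95% interval from -0.08 to 0.23 (edgeR adjusted p = 0.703), so that a change beyond 1.18-fold upward lay outside the interval. For Gpx4, 57.2% of its 31-base words also occur in 2 annotated copies elsewhere, Gpx4-ps2 and AC122253.3, and reads of such copies could be counted as Gpx4.

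Gpx2, the form known from the gut epithelium, was barely present. It had between 2 and 10 reads per library and 61 in all, and was at 0.245, 0.125, 0.126, 0.121 and 0.175 CPM in Wild-Type 1 to Wild-Type 5. The Knockout libraries lay between 0.0601 and 0.264 CPM around a median of 0.221 CPM, so that the groups overlapped. Gpx2 was not tested in the main fit. Its few reads are also ambiguous, since Gpx2-ps1 holds 54.4% of its 31-base words. The gene Fntb overlaps Gpx2 on the opposite strand but shares none of these words.

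The 2 enzymes of the endoplasmic reticulum were low and overlapped between the genotypes. Gpx8 (chromosome 13, 113042753 to 113046410) was at 3.54, 1.92, 2.64, 3.13 and 2.60 CPM in Wild-Type 1 to Wild-Type 5. In Knockout libraries it ran from 2.48 to 4.24 CPM with a median of 3.16 CPM. Its log2 fold change was 0.22 ± 0.18 (SE; 0.12 without Wild-Type 2, 0.13 without Knockout 1 and 0.15 with an adipocyte covariate), with a 95% interval from -0.17 to 0.62 (edgeR adjusted p = 0.642). Cdc20b overlaps Gpx8 on the opposite strand, and whether counting used the strand is not given in the sources used here.

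Gpx7 (chromosome 4, 108400390 to 108406961) had only 11 to 29 reads per library. It was at 0.700, 0.459, 0.534, 0.638 and 0.421 CPM in Wild-Type 1 to Wild-Type 5 and from 0.477 to 0.872 CPM in Knockout libraries, around a median of 0.685 CPM. The log2 fold change was 0.28 ± 0.23 (SE; 0.16 with transcript length offsets and 0.18 with an adipocyte covariate), with a 95% interval from -0.21 to 0.78 (edgeR adjusted p = 0.633). At this depth a change of 1.71-fold upward could not be told from none.

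Gpx5 and Gpx6, the remaining family members, known from the epididymis and the olfactory epithelium, had 0 reads in all 11 libraries. A count of 0 allows up to 3 reads per library, or at most 0.116 CPM in the shallowest without TMM scaling, for counting error only.

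**Figure D2:**
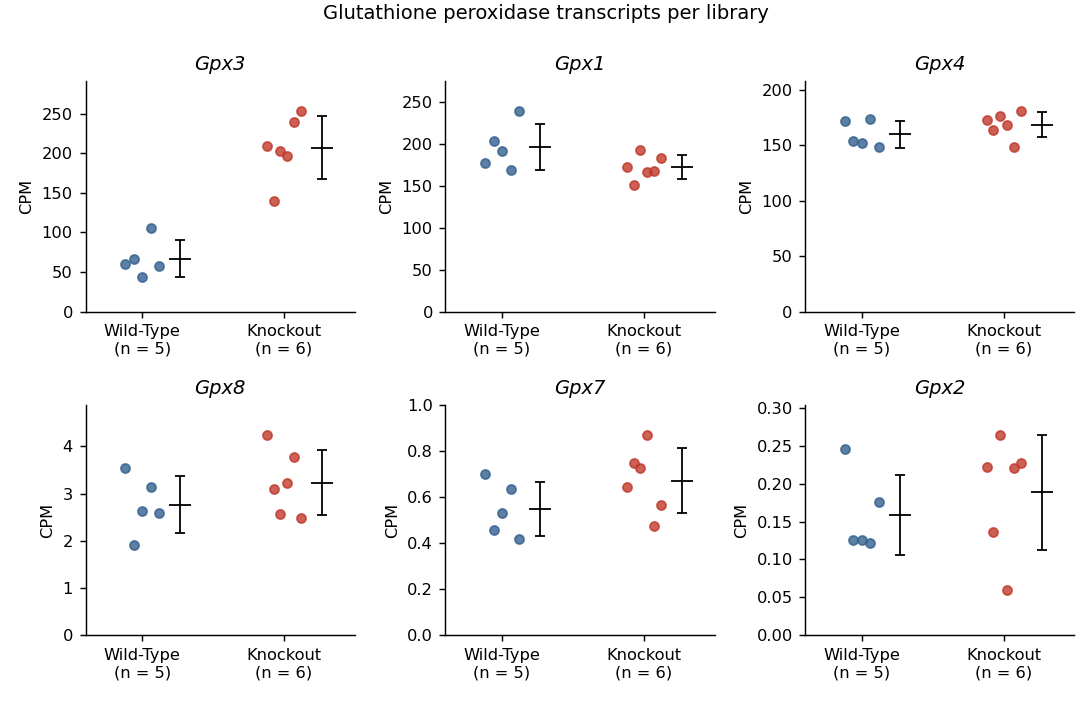
CPM of each glutathione peroxidase gene in every library (points; Wild-Type blue, n = 5, Knockout red, n = 6) with the group mean and SD as a bar beside them, and a linear axis from 0 in each panel. Gpx3 is the 1 panel in which the groups do not overlap, with Knockout from 139.5 to 253 CPM and Wild-Type from 43.6 to 106 CPM.

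Transcript forms within a gene were compared because a share does not use the gene's total. Nearly all of Gpx3 came from 1 transcript, Gpx3-201, which held between 99.8% and 100% of the gene's TPM in every library. The shorter form Gpx3-203 reached at most 0.227%, and Gpx3-202 was listed at 0. The higher level of Gpx3 in Knockout glands was therefore carried by its main coding form.

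Gpx4 has alternative first exons that place the enzyme in different compartments. Its form Gpx4-202 held 93.5% ± 5.03 of the gene in Knockout (SD, n = 6) and 89.5% ± 4.97 in Wild-Type libraries (SD, n = 5), which is 3.91 percentage points apart (exact permutation test, two-sided, p = 0.225, adjusted p = 0.449). Gpx4-207, a shorter form, held 5.76% ± 4.83 (SD, n = 6) and 9.46% ± 5.14 (SD, n = 5; exact permutation test, two-sided, p = 0.247, adjusted p = 0.449). Leaving out single libraries moved the difference from 2.26 without Wild-Type 5 to 5.32 percentage points without Wild-Type 4 for Gpx4-202, and from -1.97 to -5.22 without the same libraries for Gpx4-207. Gpx4-201, the form with the longest coding sequence, held between 0.383% and 1.45% in every library.

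For Gpx1, the selenocysteine-coding form Gpx1-201 held 90.2% ± 3.6 over the 6 Knockout libraries against 92.8% ± 5.74 over the 5 Wild-Type libraries (SD; exact permutation test, two-sided, p = 0.359, adjusted p = 0.449). Gpx1-204, for which no selenocysteine is annotated, held 9.61% ± 3.58 (SD, n = 6) and 6.95% ± 5.68 (SD, n = 5; exact p = 0.353, adjusted p = 0.449). Without Wild-Type 4 the difference for Gpx1-201 was -0.88 percentage points, and without Wild-Type 5 it was -4.66. Of the 5 shares compared, that of Gpx3-201 included (exact p = 0.974), 0 passed after adjustment and 0 had an unadjusted p under 0.05. In Gpx7 a single read assigned to the short form Gpx7-202 made up as much as 63.0% of the gene's TPM in 1 library, so that TPM of Gpx7 is coarse.

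Gpx3 was set beside adipocyte genes because Cre acts in adipocytes. Plin1, which encodes the protein coat of the fat droplet, was at 23.9, 23.8, 20.5, 25.5 and 22.2 CPM in Wild-Type 1 to Wild-Type 5. In Knockout libraries it was lowest at 16.2 CPM in Knockout 5 and highest at 36.5 CPM in Knockout 2, with a median of 25.5 CPM. The groups overlapped, and Plin1 had a log2 difference of 0.22 ± 0.17 (SE, adjusted p = 0.633 in edgeR). Adipoq, the gene of adiponectin, had a mean of 47.7 CPM ± 5.82 over the 6 Knockout libraries and of 36.1 CPM ± 5.66 over the 5 Wild-Type libraries (SD), with a fitted log2 difference of 0.40 ± 0.11 (SE, adjusted p = 0.263 in edgeR).

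Per adipocyte transcript, Gpx3 was higher in most Knockout libraries, but 1 Knockout library fell among the Wild-Type ones. There were 2.52, 2.81, 2.13, 4.15 and 2.60 Gpx3 reads per Plin1 read in Wild-Type 1 to Wild-Type 5. The Knockout libraries ran from 3.82 in Knockout 2 to 14.8 in Knockout 5, with a median of 7.89. Knockout 2 was below Wild-Type 4, and the other 5 Knockout libraries were above every Wild-Type library. Per Adipoq read, Gpx3 had 1.53, 1.54, 1.48, 3.37 and 1.57 reads in Wild-Type 1 to Wild-Type 5 and from 3.19 in Knockout 2 to 6.03 in Knockout 6, with a median of 4.10. Again the groups overlapped only between Wild-Type 4 and Knockout 2.

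The adipocyte list was mixed, with 15 genes above 0 and 5 below. All 20 of its genes were tested, none was at 0 in all libraries, 0 passed in edgeR, and 7 had an unadjusted p under 0.05, all 7 higher, where 12.4% of all genes tested had one in either direction. Its median log2 fold change was 0.20, against -0.01 over all genes tested. Summed over the list, Knockout libraries had 1998 to 2474 CPM, Wild-Type libraries 1783 to 2233 CPM. The gene of the list with the smallest p was Cfd, which encodes the serine protease adipsin, at 0.78 ± 0.18 (log2, SE; edgeR adjusted p = 0.218). The highest value of the list was that of Plin4, a fat droplet protein, at 1.33 ± 0.36 (log2, SE; edgeR adjusted p = 0.250), but its count was incomplete here. The lowest was that of Lep, the gene of the hormone leptin, at -0.81 ± 0.50 (log2, SE; edgeR adjusted p = 0.526). In bulk libraries, fewer or more cells of a type and less or more RNA per cell cannot be told apart.

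Several lists of other cell types also stood away from 0 beside Gpx3, with 0 genes called in each. The median log2 fold change was 0.34 for 8 fibroblast and matrix genes, 0.28 for 8 luminal epithelium genes and 0.22 for 8 myoepithelium and smooth muscle genes. The 6 skeletal muscle genes had a median of 2.18; Knockout 1 had 2020 CPM summed over them, where the other Knockout libraries reached 158.5 CPM and the Wild-Type libraries 171 CPM; without Knockout 1, the log2 fold change of Gpx3 was 1.64. The median was -0.27 for 8 milk protein genes, -2.92 for the 5 B cell genes tested of 7, -1.39 for the 6 T cell genes tested of 7 and -0.38 for 5 plasma cell genes. The summed counts of Elf5 in the luminal list and of Xbp1 in the plasma cell list were incomplete here. At an unadjusted p under 0.05, 5 of 5 B cell genes and 2 of 6 T cell genes were lower, 1 plasma cell gene and 1 macrophage gene were lower, and 2 genes each of the fibroblast, luminal and myoepithelium lists were higher. Macrophage, endothelium and blood lists had medians of -0.00, 0.06 and -0.05. The summed ranges of the genotypes overlapped in every one of these lists, and the part of these cells in the Gpx3 difference was not tested.

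With an adipocyte score in the model, the mean over the list of centred log2 CPM, Gpx3 had a log2 difference of 1.74 ± 0.23 (SE, adjusted p = 0.0557 in edgeR), against 1.63 without it. With Plin4 left out of the score, chosen after seeing the data because its summed count was incomplete here, it was 1.68 ± 0.23 (SE, adjusted p = 0.0438 in edgeR). With Slc2a4, also incomplete, left out as well, again chosen after seeing the data, it was 1.70 ± 0.23 (SE, adjusted p = 0.0429 in edgeR), so that the side of the threshold depended on whether Plin4 was in the score. The score was made of genes of the cells in which Cre acts, and the part of adipocytes in the Gpx3 difference was not tested.

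Within the Knockout group, no relation of Gpx3 to adipocyte transcripts passed the test. The 6 Knockout libraries gave a Pearson r of -0.70 between Gpx3 and Plin1 in log2 CPM (exact permutation test, two-sided, p = 0.143, adjusted p = 0.668) and a Spearman rho of -0.49 (exact p = 0.356). Without Knockout 2 and Knockout 5, the libraries farthest from the median of Plin1, r was -0.28, so that its size rested on those libraries, and over all 6 on the scale of log2 TPM + 1 it was also -0.28. With the adipocyte score, r was -0.70 (exact p = 0.106, adjusted p = 0.668) and rho -0.54 (exact p = 0.297), and without Knockout 1 and Knockout 2 r was -0.73, but it was -0.04 on the scale of log2 TPM + 1. With Adipoq it was -0.01 (exact p = 0.989), with a rho of -0.26 (exact p = 0.658) and an r of 0.42 without Knockout 1 and Knockout 6.

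In all, 14 relations of Gpx3 within the Knockout group were computed, with Plin1, Adipoq and the scores of 12 cell type lists. The lowest Pearson r was -0.74 for fibroblasts and matrix (exact p = 0.0778; rho -0.54, exact p = 0.297), and it was -0.03 without Knockout 1 and Knockout 2. The highest was 0.36 for T cells (exact p = 0.419; rho 0.26, exact p = 0.658), and it was -0.57 without the same libraries. Of the 14 relations, 0 had an unadjusted exact p under 0.05, and the smallest adjusted p was 0.668. No correlation was computed over the 5 Wild-Type libraries. Their order was not that of the Knockout group: Wild-Type 4 had both the highest Gpx3 and the highest Plin1 and Wild-Type 3 the lowest of both, whereas Knockout 2 had the lowest Gpx3 and the highest Plin1. The difference between the groups in this relation was not tested.

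**Figure D3:**
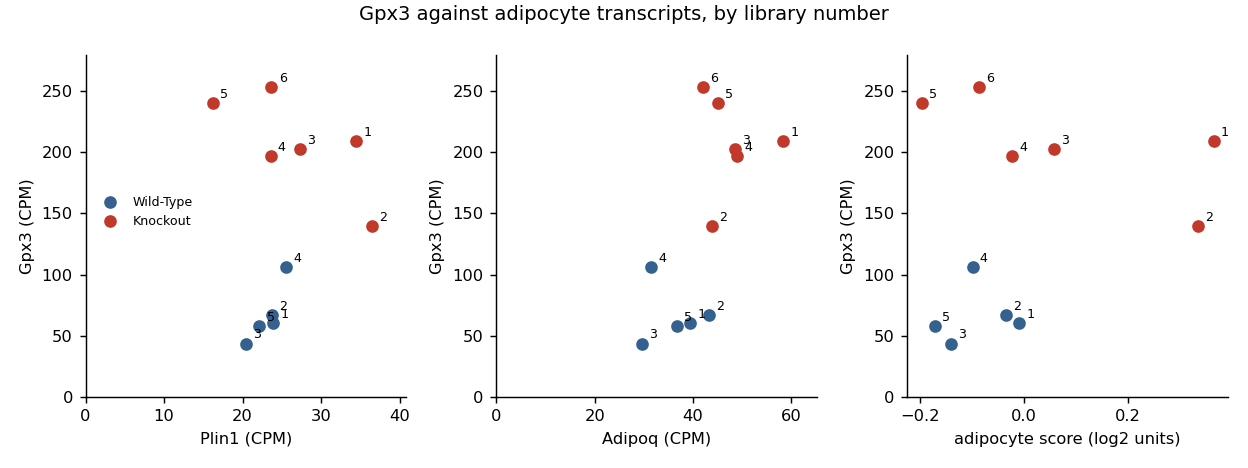
Gpx3 in CPM against Plin1 in CPM, Adipoq in CPM and the adipocyte score in log2 units, 1 point per library with its replicate number (Wild-Type blue, n = 5; Knockout red, n = 6). At similar Plin1 levels, Knockout 4 and Knockout 6 lie at 197 and 253 CPM of Gpx3, and Wild-Type 1, 2 and 4 at 60.2, 66.7 and 106 CPM.

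The genes most like Gpx3 were ranked by Pearson r of log2 CPM over the 11 libraries after each genotype's mean was subtracted, so that the genotype difference itself did not enter. The 8 highest were Map3k11 (r = 0.92), Mkrn2 (r = 0.91), Rtn4rl1 (r = 0.88), St6galnac6 (r = 0.87), Mast3 (r = 0.85), Arf2 (r = 0.85), Fbxl14 (r = 0.85) and Apol6 (r = 0.84). None of the 8 belongs to the lists used here. Between the genotypes, Mast3 stood at -0.43 ± 0.07 (log2, SE; edgeR adjusted p = 0.0604), short of the threshold, and Map3k11 stood at 0.06 ± 0.07 (adjusted p = 0.781). St6galnac6, Arf2 and Apol6 stood at 0.48, 0.42 and 0.79, and Mkrn2, Rtn4rl1 and Fbxl14 at 0.02, -0.10 and -0.0007, all short of the threshold. The r values are the top of 12716 genes over few libraries and are given as a description.

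Correlations between the tested members ran in both directions and are given as a description. After the genotype means were subtracted, r over the 11 libraries was 0.40 between Gpx3 and Gpx4, -0.08 between Gpx3 and Gpx1, 0.09 between Gpx3 and Gpx8, and -0.11 between Gpx3 and Gpx7. On the same measure it was -0.21 between Gpx3 and Plin1 and 0.02 between Gpx3 and Adipoq. The pair with the highest r was Gpx4 and Gpx7, at 0.64, and the pair with the lowest was Gpx1 and Gpx7, at -0.56. The genes most like the other members were Tyms, Nudt5 and Prdx5 for Gpx1 (r = 0.96, 0.96 and 0.95), F11r, Cldn34c1 and Stmn1 for Gpx4 (r = 0.92, 0.90 and 0.90), Rnf8, Slc25a13 and Cln6 for Gpx7 (r = 0.88, 0.87 and 0.87), and Gtf3c4, Zzef1 and Ankrd28 for Gpx8 (r = 0.95, 0.94 and 0.92). Prdx5 is itself a peroxide-removing enzyme.

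The genes around the peroxidases were taken from 7 lists with 92 genes, of which 80 were tested. None passed in edgeR, where 13 had an unadjusted p under 0.05, or 16.2% against 12.4% of all genes tested. DESeq2 called 1 of them, Oplah, and 0.957% of all genes it tested. The median log2 fold change of the 80 genes was -0.00, beside -0.01 over all genes, and 40 of 80 were above 0.

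Glutathione synthesis and recycling supplies the electron donor of these enzymes. Of 16 genes 15 were tested, with a median log2 fold change of 0.02, 0 called, and 2 higher and 2 lower at an unadjusted p under 0.05. Oplah, which opens 5-oxoproline in the glutathione cycle, had 47.5 CPM ± 1.3 over the 6 Knockout libraries against 57.5 CPM ± 4.93 over the 5 Wild-Type libraries (SD), which is -0.27 ± 0.07 in log2 (SE; edgeR adjusted p = 0.218, DESeq2 adjusted p = 0.00834). In 3 genes of the list the groups did not overlap, against 1.32% of all genes tested: Oplah and, named after their values were seen, Ggct at -0.40 ± 0.12 and Idh1 at 0.46 ± 0.13 (log2, SE; edgeR adjusted p = 0.270 and 0.263). Ggct makes the 5-oxoproline that Oplah opens. Gsr, which regenerates glutathione for the peroxidases, was also named after its value was seen, at 0.42 ± 0.13 (log2, SE; edgeR adjusted p = 0.274).

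Selenium supply and selenocysteine insertion, which the 4 selenium-containing members require, showed no called gene. Of 12 genes 11 were tested, 0 had an unadjusted p under 0.05 in edgeR, and log2 fold changes ran from -0.24 to 0.16 around a median of -0.01. The smallest p was that of Trnau1ap, a factor that binds the selenocysteine tRNA, at -0.16 ± 0.09 (log2, SE, edgeR adjusted p = 0.481). Trnau1ap stood at -0.10 without Wild-Type 2 and at -0.09 with transcript length offsets. Among the other selenoproteins 14 of 18 were tested, 0 were called, 2 were higher at an unadjusted p under 0.05, and the median was 0.03. Txnrd1, the cytosolic thioredoxin reductase, had the smallest p there, with 41.6 CPM ± 7.83 over the 6 Knockout libraries against 31.2 CPM ± 1.2 over the 5 Wild-Type libraries (SD), which is 0.42 ± 0.12 in log2 (SE; edgeR adjusted p = 0.263).

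The other enzymes that remove peroxide, catalase and the peroxiredoxins with their thioredoxin partners, were all tested. Of these 10 genes 0 were called, 1 was lower at an unadjusted p under 0.05, 7 had log2 fold changes below 0, and the median was -0.04. Prdx4, the peroxiredoxin of the endoplasmic reticulum, had the smallest p, at -0.31 ± 0.14 (log2, SE; edgeR adjusted p = 0.387). In the list of superoxide and peroxide sources 12 of 14 genes were tested with 0 called, 1 higher and 1 lower at an unadjusted p under 0.05, and a median of -0.10. Ncf4, a subunit of the phagocyte NADPH oxidase, had the smallest p at -0.98 ± 0.32 (log2, SE; edgeR adjusted p = 0.286), and stood at -0.60 without Wild-Type 5.

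Partners of Gpx7 and Gpx8 in oxidative folding gave 0 called genes of 8 tested out of 9, 0 at an unadjusted p under 0.05 in edgeR, and a median of -0.04. P4hb, a protein disulfide isomerase, had the smallest p, at -0.18 ± 0.09 (log2, SE; edgeR adjusted p = 0.468). Genes of lipid peroxidation and ferroptosis, the form of cell death that Gpx4 restrains, had the highest median of the 7 lists at 0.14, with 8 of 10 tested genes above 0 and 0 called out of 13 genes in the list. At an unadjusted p under 0.05, 3 of the 10 were higher and 1 was lower. Gch1, which makes the first intermediate of tetrahydrobiopterin, had the smallest p, at 0.43 ± 0.16 (log2, SE; edgeR adjusted p = 0.341).

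**Figure D4:**
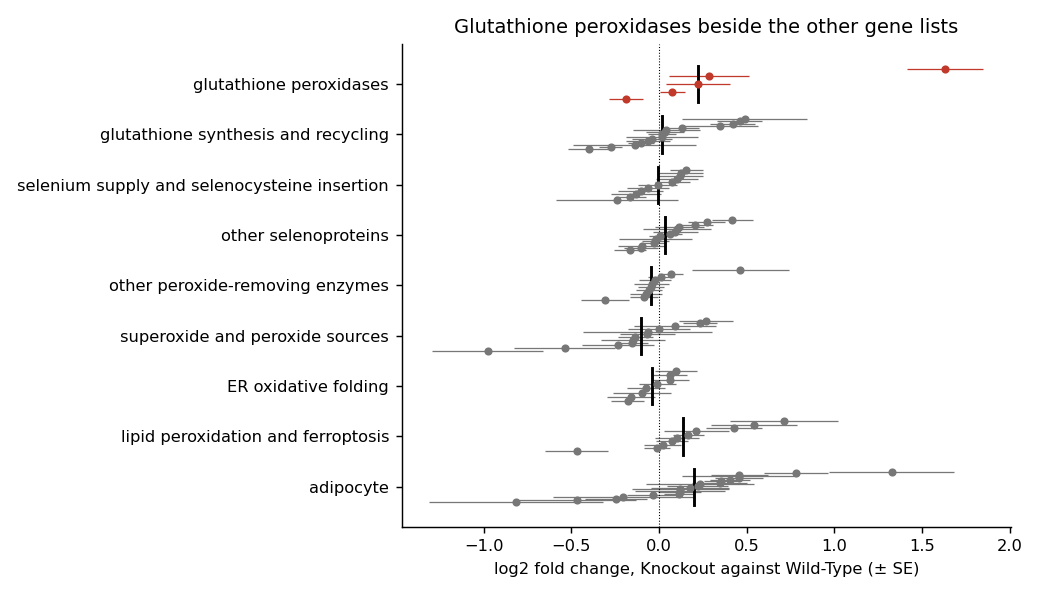
Log2 fold change of Knockout against Wild-Type with its SE for each tested gene (points), grouped by list, with the list's median as a black line, the adipocyte list at the bottom and the glutathione peroxidases in red. Gpx3 at 1.63 lies apart from the other peroxidases, which run from -0.19 to 0.28, and the medians of the 7 pathway lists lie between -0.10 and 0.14.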

How the data were processed

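Total RNA was sequenced in 11 strand-specific libraries, per the labels' protocols. Per the file headers, each deposited table gave transcript lengths, TPM and estimated counts; Salmon 1.3.0, DESeq2 1.28.1 and GRCm38.p6 are named in the submitters' processing notes. The index and bias options are not given in the sources used here. Listed lengths lay within 3 bases of the coding length for 94.3% of transcripts, so untranslated regions were mostly left out.

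Estimated counts were summed per gene with GENCODE M21 (57452 of 58204 transcripts matched; unmatched ones held at most 0.265% of a library) and rounded. The authors' deposited table of normalized gene values, taken as a signal on their scale, served to check completeness: the 6 members were within 1.01 of the median ratio, whereas Dio3, Elf5, Ggt7, Pdia6, Plin4, Slc2a4 and Xbp1 were incomplete here, with ratios over 1.15.

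The test was edgeR 4.0.16 (quasi-likelihood, robust, TMM, filterByExpr, 12716 genes, Benjamini-Hochberg over them all), checked on simulated data; alternatives were DESeq2 1.42.0, limma 3.58.1, other library scalings, no filter, length offsets, a replicate block, an adipocyte covariate and leaving out each library. Transcript shares (genes with at least 50 reads per library, transcripts of at least 5%) and correlations used exact permutation tests. Log2 CPM used a prior count of 2. Genes named were the members, Plin1, Adipoq, adipocyte genes, each list's gene with the smallest p, and the 8 (Gpx3) or 3 genes most like a member. Members and lists were chosen with earlier results of these data known.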

Additional observations from a re-analysis of the deposited data

Results flagged for a closer look

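In 66 sets of values, 1 library lay far from its own genotype 4 times; about 1 in 20 sets, or 3.3, would give this by chance.

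Of these, 3 concern Wild-Type 4. Its Gpx3 level was 110 TPM, against 33.3 to 55.3 TPM in the other Wild-Type libraries. It had 3.37 Gpx3 reads per Adipoq read, against 1.48 to 1.57, a flag that uses the same Gpx3 reads as the first and is not separate from it. Its luminal epithelium score, which includes Elf5 with its incomplete count, was 0.45, against -0.42 to -0.18. Transcripts of luminal cells were thus high in the same library as Gpx3. The part of these cells in the Gpx3 value was not tested. The other is the B cell score of Knockout 1, at 1.40 against -2.36 to -1.17 in the other Knockout libraries, where Gpx3 was 209 CPM, close to the Knockout median of 206 CPM.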

How the results depend on the processing

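Gpx3 kept its direction in all 21 alternatives, with log2 fold changes from 1.51 to 1.86. The adipocyte scores without Plin4, with or without Slc2a4, were alternatives chosen after seeing the data. With all libraries kept and these included, 8 of 10 alternatives placed Gpx3 past the threshold. With a replicate block it was 1.61 (edgeR adjusted p = 0.256), which left 0 members past the threshold and 0 genes over the whole table against 7; with the adipocyte score as a covariate it was 1.74 (adjusted p = 0.0557), with 0 members and 1 gene called (4 genes without Plin4 and Slc2a4 in the score). DESeq2 called 135 genes. Leaving out single libraries gave 1.51 to 1.86, adjusted p from 0.00303 to 0.0779, 0 to 1 members past the threshold and 0 to 28 genes called, 0 of them without Knockout 3 or Knockout 6 and 28 without Knockout 2. The replicate block changed no other member's call. The correlations between same-numbered libraries ran from -0.223 to 0.187, which did not show a pairing but cannot exclude one. Gpx1, Gpx4, Gpx7 and Gpx8 kept their directions and stayed short of the threshold in all alternatives run, with adjusted p no lower than 0.278, 0.510, 0.510 and 0.488. Among the pathway lists the count of called genes was 0 except for 1 in DESeq2.

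The r of Gpx3 with Plin1 ran from -0.82 to -0.52 without single libraries. On the scale of log2 TPM + 1, r shrank to -0.28 for Plin1, -0.04 for the adipocyte score and -0.09 for fibroblasts and matrix. It also shrank to -0.03 for myoepithelium and smooth muscle, -0.37 for endothelium and 0.12 for milk proteins, and rose to 0.62 for T cells. It changed sign to 0.36 for Adipoq, 0.25 for luminal epithelium, 0.21 for macrophages and 0.46 for B cells. The sign also changed for plasma cells (0.0349), skeletal muscle (0.30) and blood (-0.20). Leaving out single libraries, r crossed 0 for Adipoq (-0.69 to 0.35), B cells (-0.34 to 0.20), T cells (-0.37 to 0.67), blood (-0.50 to 0.47), endothelium (-0.73 to 0.48), luminal epithelium (-0.47 to 0.81), milk proteins (-0.10 to 0.44) and skeletal muscle (-0.49 to 0.0527), as did the Gpx3-201 share difference (-0.0362 to 0.0205 percentage points). The cause was not tested. Depth limits Gpx2 and Gpx7; without the filter Gpx2 stood at 0.25 ± 0.43 in log2 (SE, adjusted p = 0.843 in edgeR).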
